A study of Sus scrofa with 8 samples.

Results

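The CD antigens are surface proteins of leukocytes and other cells that were first sorted into clusters of differentiation by the antibodies that bind them. The genes described here are those whose symbol is CD followed by a number and at most 1 further letter, without the 7 genes CD14, CD46, CD55, CD59, CD68, CD74 and CD163. On the Affymetrix Porcine array the rule found 52 probe sets of 34 genes, of 24123 probe sets in all. The rule uses gene names alone and no measured value. It also takes CD5L, which is a secreted macrophage protein named for its likeness to CD5 and is no surface antigen.

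The oviducts compared came from 4 weaned Landrace × Large White crossbred sows with pre-ovulatory follicles. Each sow gave both of its oviducts. In the Y-spermatozoa group (4 arrays) the oviduct had received flow-sorted spermatozoa bearing the Y chromosome, and in the X-spermatozoa group (4 arrays) the other oviduct of the same sow had received sorted spermatozoa bearing the X chromosome. The semen of several boars was stained for sorting, the uterine horns were closed with staples so that spermatozoa could not cross, and the mucosa was scraped after 24 h, before ovulation. Each oviduct went on 1 array, all oviducts held spermatozoa, and no oviduct without them was measured, so a level here cannot be set against an unexposed one. The animals' age is not given in the sources used here. The replicate number was taken as the number of the sow, which the labels do not state, and every result by sow or with the block rests on this.

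As background, CD antigens of a mucosa fall into groups by role. Tetraspanins are small membrane proteins that gather other receptors into patches and are carried on vesicles that cells shed, and CD9 on the egg is needed in mice for fusion with the spermatozoon. The CD3 chains with CD247 pass on the signal of the T cell receptor, CD8 marks cytotoxic T cells, which are common within mucosal linings, and CD80, CD86 and CD40 are costimulatory proteins of cells that present antigen. Adhesion and mucin-like antigens such as CD164, CD47 and CD99 are found on many cell types.

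Levels are given as the deposited signals, which are linear array units scaled to one trimmed mean per array. The signal of one probe set cannot be set against that of another, so levels were compared only between oviducts. Differences are Y-spermatozoa minus X-spermatozoa on the log2 scale after quantile normalization, with the standard error (SE) and two-sided p of limma over 23999 probe sets. The sow was not in that fit. Since both oviducts came from one animal, the p with the sow as a block is given wherever it lay on the other side of 0.05, and for the wider differences. Adjustment was by Benjamini-Hochberg over all of these probe sets.

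The arrays had a median signal of 38.7 to 39.9 with Y-spermatozoa and 39.8 to 41.2 with X-spermatozoa. The background of an array, taken as the 95th percentile of 80 probe sets without a pig target, was 7.84 to 10.6 with Y-spermatozoa and 7.93 to 11.2 with X-spermatozoa, with a mean of 9.36. The tissue label was borne out by its markers, since all 6 measured markers of oviduct epithelium lay above background on every array. The summed deposited signals of those 6 were 16385 to 17076 with Y-spermatozoa and 13655 to 16238 with X-spermatozoa and did not overlap. After normalization 5 of the 6 differences were above 0 and 1 below, with a median of 0.09, and 0 passed in limma with or without the block; KRT8 (0.12) and KRT18 (0.19) were higher with Y-spermatozoa in every sow, and EPCAM differed by -0.01. The 7 measured markers of stroma and smooth muscle were all above background too, with sums of 3729 to 8719 with Y-spermatozoa and 5320.0 to 8811 with X-spermatozoa, so the scrapings held more than epithelium. In such mixed tissue, fewer cells of a type and less RNA per cell cannot be told apart.

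Several leukocyte markers had a mean signal below background in a group. Of 6 measured T cell markers 4 lay above background in both groups, and their summed signal was 76.2 to 94.2 with Y-spermatozoa and 61.1 to 101.0 with X-spermatozoa. Of 3 natural killer and cytotoxic markers 2 were above background (sums of 18.6 to 60.5 against 15.7 to 49.3), and of 5 myeloid markers 3 (sums of 121.3 to 203.2 against 105.2 to 140.6). Of the 2 measured B and plasma cell markers, CD79B lay below background on every array and JCHAIN, the joining chain of secreted antibodies, above it (sums of both 162.0 to 351.8 against 123.6 to 460.9). The sums of each leukocyte list overlapped between the groups. All 5 myeloid differences were above 0, with a median of 0.36 (0.26 for the 3 above background in both groups) and none past the threshold in limma with or without the block. The 3 red cell markers measured had sums of 240.8 to 278.7 with Y-spermatozoa and 232.5 to 270.2 with X-spermatozoa, and within them HBM, a globin, was higher with Y-spermatozoa in every sow (difference 1.01, unadjusted p = 0.0192, and 0.0107 with the sow as a block). ALAS2, the haem synthesis enzyme of red cells, was higher in every sow too (difference 0.44, unadjusted p = 0.40, and 0.0115 with the block), and HBB, the beta globin, was lower in every sow (difference -0.08, unadjusted p = 0.577). Adjusted, none of these passed.

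**Figure D1:**
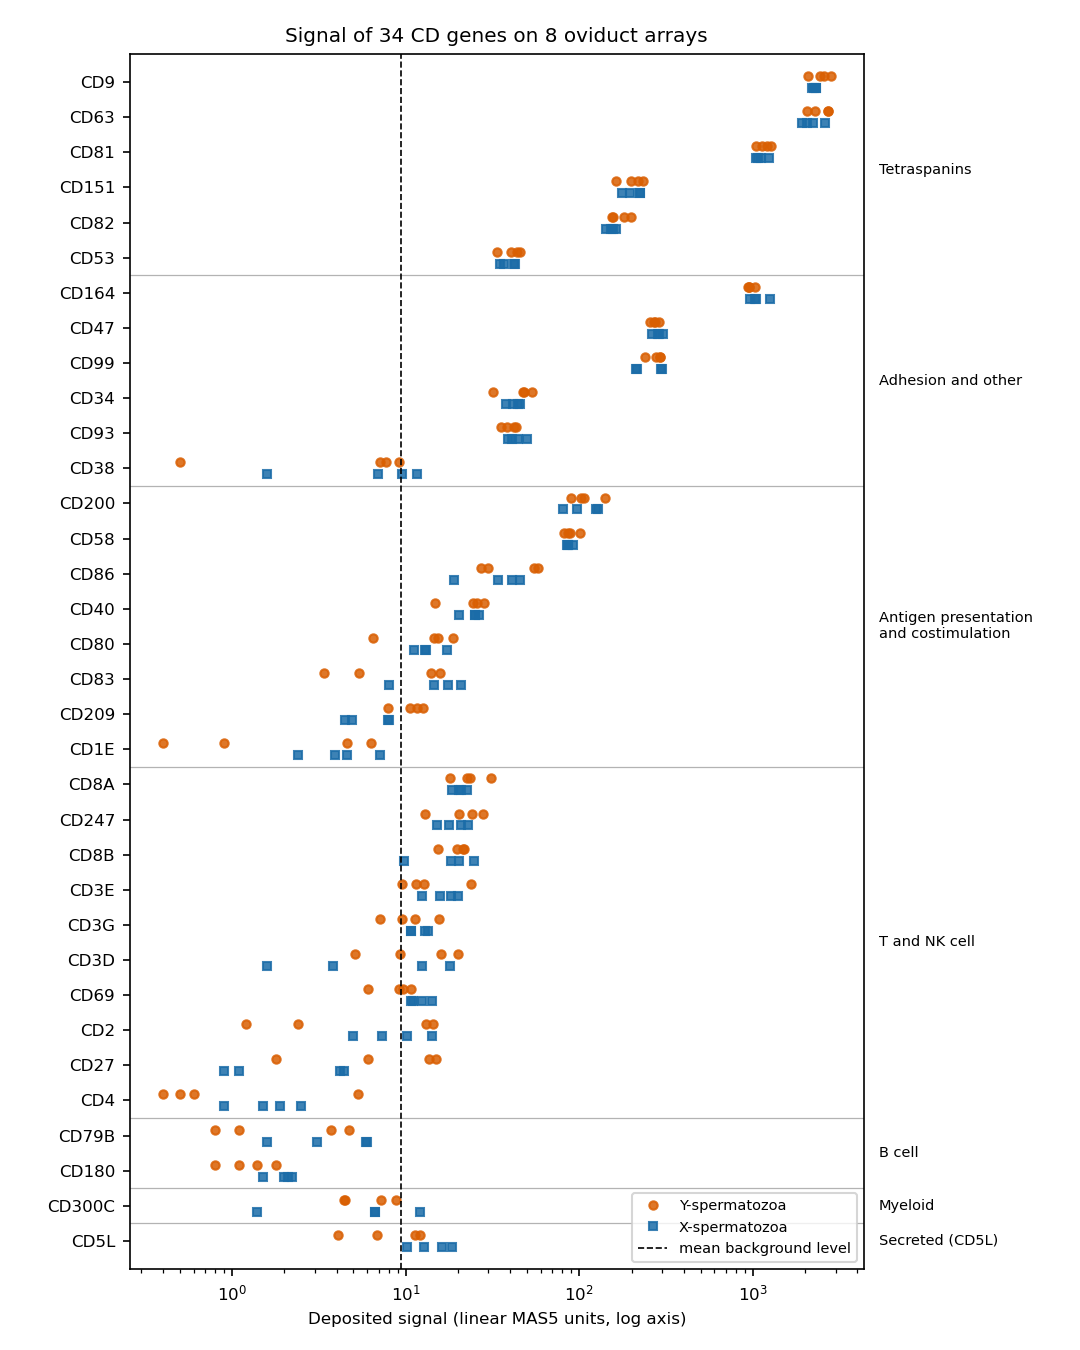
Deposited signal (linear units, log axis) of 34 CD genes, each by its brightest probe set, on 4 Y-spermatozoa arrays (circles) above 4 X-spermatozoa arrays (squares), with the mean background of 9.36 as a dashed line. The points of both groups overlap or meet for every gene on this scale, and most T cell, B cell and myeloid genes lie close to the dashed line or below it.

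Between the oviducts of both kinds, few CD probe sets were called. Among the 52 member probe sets, 1 had an unadjusted p under 0.05, that of CD209, which was higher with Y-spermatozoa. This is 1.92% of the members, against 3.56% of all probe sets tested (1.62% higher and 1.94% lower with Y-spermatozoa). None of the 52 passed after adjustment in limma, and of all probe sets 0% did. The differences ranged from -0.99 to 1.82 with a median of 0.03, and the median over all probe sets was 0.00. In number, 28 probe sets were above 0 and 24 below it. The intervals of several dim genes were wide, such as -0.94 to 2.91 for CD3D, so the few calls do not show that these genes differed little.

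Of the 34 genes 22 had a mean signal above background in both groups, and 18 were above it on all 8 arrays. Among the 31 probe sets above background in both groups, 0 passed the unadjusted threshold in limma without a block and 0 with the sow as a block, against 2.43% of all probe sets above background without the block and 3.75% with it. Their median difference was 0.04. Of the 52 probe sets, 2 had groups that did not overlap after normalization (3.85%, against 2.07% of all probe sets), 1 of CD209 and 1 of CD82.

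**Figure D2:**
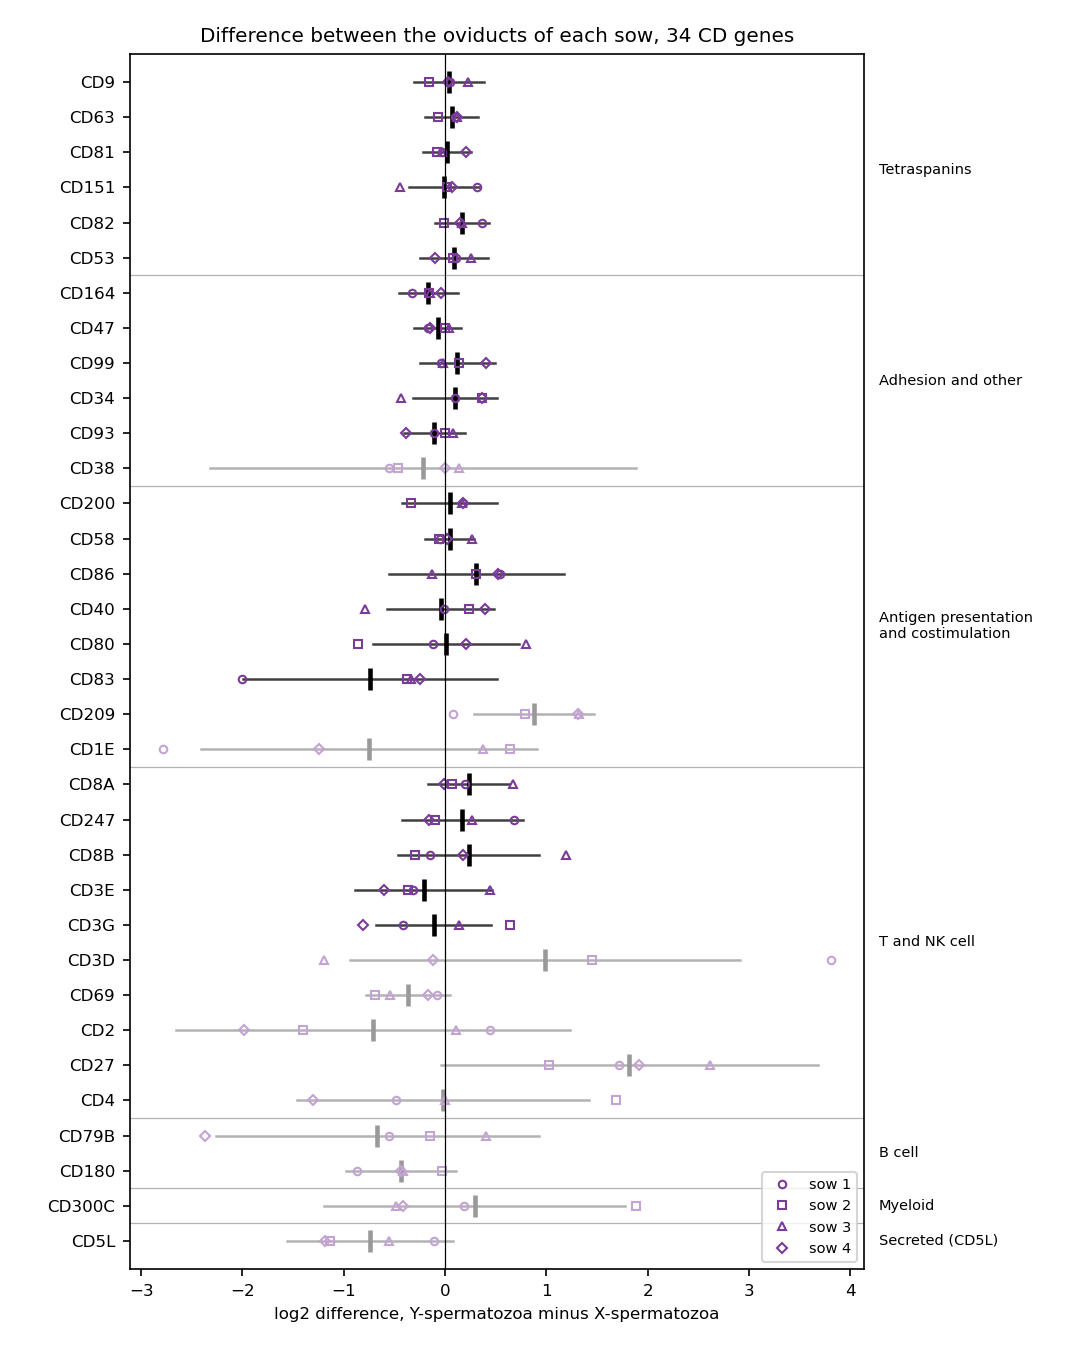
Log2 difference between the oviducts of each sow (open symbols, 1 shape per sow), with the mean (bar) and its 95% interval (line) from limma for 34 CD genes, pale where a group's mean signal is below background. The intervals of all genes but CD209 include 0, and the wide ones belong mostly to the pale, dim genes.

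All 6 tetraspanin genes measured were above background on all 8 arrays. None of their 9 probe sets passed the test, and the median difference of the 6 genes was 0.05, with 5 of them above 0. CD9 had signals of 2440.2, 2078, 2805 and 2562 with Y-spermatozoa, against 2314, 2241, 2310.4 and 2195 with X-spermatozoa. The Y-spermatozoa signals were the more spread and held both the highest and the lowest value. The means were 2471 ± 303 and 2265 ± 57.7 (SD, n = 4 each), and the difference was 0.04 (SE 0.15, 95% interval -0.31 to 0.38, unadjusted p = 0.813).

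CD63, a tetraspanin of lysosomes and shed vesicles, had 2267, 2699, 2062 and 2692 with Y-spermatozoa, against 2049, 2589, 1929 and 2231 with X-spermatozoa. On the deposited scale it was higher with Y-spermatozoa in every sow, and after normalization in 3 of 4. Its difference was 0.06 (SE 0.11, unadjusted p = 0.577), which is within the spread between sows. CD81, a tetraspanin found on most cells, had 1135, 1213, 1044 and 1274 with Y-spermatozoa, against 1120.2, 1244, 1073 and 1044 with X-spermatozoa. These values overlapped over their whole range, with a difference of 0.02 (unadjusted p = 0.877).

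CD151, which binds laminin-binding integrins at the base of epithelia, averaged 203 ± 30.3 with Y-spermatozoa and 205 ± 22.5 with X-spermatozoa (SD, n = 4 each). Its difference was -0.01 (unadjusted p = 0.95), and 0.017 when each array was centred on its median. The 2 probe sets of CD82, a tetraspanin that restrains cell movement, had nearly the same difference. The brighter one had 198, 155, 181 and 157 with Y-spermatozoa, against 153, 156, 162 and 142 with X-spermatozoa (difference 0.17, SE 0.11, unadjusted p = 0.181).

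The other CD82 probe set had 75.3, 75.0, 80.1 and 74.7 with Y-spermatozoa, against 64.2, 73.9, 71.5 and 66.4 with X-spermatozoa. All 4 values with Y-spermatozoa lay above all 4 with X-spermatozoa, though the lowest of the one and the highest of the other were close. The difference was 0.16 (SE 0.09, unadjusted p = 0.126, and 0.136 with the sow as a block), so it did not pass the test in either fit. CD53, a tetraspanin of leukocytes, had 33.6 to 45.7 with Y-spermatozoa and 34.9 to 42.9 with X-spermatozoa at its brightest probe set, a difference of 0.09 (unadjusted p = 0.567).

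Of the 6 genes listed as adhesion, mucin-like and other antigens, 5 were above background on all arrays and CD38, described with the sows, was not. Their 6 differences had a median of -0.09, with 2 above 0 and 4 below, and 0 passed in limma, with or without the block. CD164, a sialomucin of the cell surface, had 1034, 941, 949.7 and 952 with Y-spermatozoa, against 1257, 1027, 1047 and 968 with X-spermatozoa. In each of the 4 sows the oviduct with Y-spermatozoa had the lower value, by most in sow 1. The difference of -0.17 (SE 0.13, unadjusted p = 0.226) did not pass, and the other 2 CD164 probe sets gave -0.03 and 0.08.

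CD47, the signal that keeps macrophages from engulfing a cell, had 255, 289, 269 and 273 with Y-spermatozoa, against 286, 289, 261 and 304 with X-spermatozoa. The means of 272 ± 13.8 and 285 ± 17.5 (SD, n = 4 each) differed by -0.07 (SE 0.10, unadjusted p = 0.494). A dimmer CD47 probe set read otherwise, with 107, 151, 72.6 and 156 with Y-spermatozoa, against 64.6, 109, 77.2 and 104 with X-spermatozoa. It was higher with Y-spermatozoa in sows 1, 2 and 4 and lower in sow 3, with a difference of 0.43 (unadjusted p = 0.184, and 0.0525 with the sow as a block).

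CD99, through which leukocytes pass between endothelial cells, had 291, 238, 292 and 278 with Y-spermatozoa, against 299, 216, 295 and 212 with X-spermatozoa. The values lay apart in sow 4 and close together in the others, and the difference was 0.12 (unadjusted p = 0.474). CD34, a sialomucin of blood vessels and stromal and progenitor cells, had 31.7 to 53.1 with Y-spermatozoa and 37.7 to 45.5 with X-spermatozoa (difference 0.10, unadjusted p = 0.598). CD93, a receptor of endothelium and myeloid cells, had 35.5 to 43.3 with Y-spermatozoa and 38.9 to 50.2 with X-spermatozoa (difference -0.10, unadjusted p = 0.441). The vessel antigens thus showed no difference larger than the spread between oviducts.

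Of the 8 genes for antigen presentation and costimulation, 6 were above background in both groups, with 5 differences above 0 and 3 below. In limma 1 of their 12 probe sets passed the unadjusted threshold (8.33%, against 3.56% of all probe sets). CD200, which calms myeloid cells through its receptor, had 141, 102, 106 and 90.2 with Y-spermatozoa, against 124, 129, 96.6 and 80.6 with X-spermatozoa. Sow 4 was lowest in both oviducts, and the difference was 0.04 (unadjusted p = 0.831). CD58, a ligand of CD2 on T cells, varied little, with 81.5 to 102 with Y-spermatozoa and 85.1 to 91.7 with X-spermatozoa (difference 0.04, unadjusted p = 0.686).

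CD86, which binds CD28 and CTLA4 on T cells, had 27.0, 55.2, 29.9 and 58.0 with Y-spermatozoa, against 18.9, 45.7, 34.1 and 41.1 with X-spermatozoa. Sows 2 and 4 were high and sows 1 and 3 low in both oviducts, and within sows the Y-spermatozoa value was higher in 3 of 4. The difference was 0.31 (SE 0.37, 95% interval -0.56 to 1.17, unadjusted p = 0.432, and 0.106 with the sow as a block). CD80, its relative, had 6.5 to 18.7 with Y-spermatozoa and 11.2 to 17.2 with X-spermatozoa, and a difference of 0.01 (unadjusted p = 0.979) that turned to -0.071 under the deposited scaling and to -0.038 after centring each array on its median.

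CD40, the receptor by which T cells activate B cells and dendritic cells, had 24.3, 28.4, 14.7 and 25.7 with Y-spermatozoa, against 25.0, 25.2, 26.5 and 20.2 with X-spermatozoa. The low value with Y-spermatozoa was that of sow 3, and the groups overlapped. Its 3 probe sets differed by -0.04, 0.12 and -0.04, none of which passed in limma. CD83, a marker of mature dendritic cells, had 3.4, 5.4, 15.8 and 14.0 with Y-spermatozoa, against 14.5, 8.0, 20.7 and 17.5 with X-spermatozoa. It was lower with Y-spermatozoa in each of the 4 sows, with a difference of -2.01 in sow 1, while sows 2 to 4 gave -0.38, -0.33 and -0.25. The mean difference was -0.74 (SE 0.54, unadjusted p = 0.208, and 0.0986 with the sow as a block), and CD83 was above the background of its own array on 2 of 4 Y-spermatozoa and 3 of 4 X-spermatozoa arrays.

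CD209, a lectin of dendritic cells and macrophages that binds sugars on microbes, was the one member to pass. It had 7.9, 12.6, 11.6 and 10.6 with Y-spermatozoa, against 7.9, 8.0, 4.9 and 4.5 with X-spermatozoa. Sow 1 had the same signal in both oviducts, and the other sows were each higher with Y-spermatozoa. The groups overlapped slightly in the deposited signals and lay apart after normalization. The means were 10.7 ± 2.02 and 6.33 ± 1.88 (SD, n = 4 each), with a limma p of 0.0096 (0.0224 with the sow as a block) and an adjusted p of 1.00.

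The signals of CD209 were near background, since it was above the background of its own array in sows 2 and 3 with Y-spermatozoa and on none of the 4 X-spermatozoa arrays. The X-spermatozoa level is therefore only a bound. The Y-spermatozoa arrays of sows 1 and 4 were below their own background too, so that no fold is given. With values below background set to background on all arrays, the difference was 0.23 (unadjusted p = 0.173) and the call was lost. The myeloid markers given above had 5 of 5 differences above 0 and overlapping sums, but did not move evenly. CD163 (difference 0.06) and ITGAM (0.59) were each higher with Y-spermatozoa in 2 sows and lower in 2. ITGAM had a mean below background in both groups, and CD14 in X-spermatozoa. Of the 5 only TYROBP, an adaptor of myeloid and natural killer receptors, was higher with Y-spermatozoa in every sow after normalization (difference 0.45, unadjusted p = 0.146, and 0.0889 with the sow as a block). HBM and ALAS2 also went the same way as CD209, while HBB was lower with Y-spermatozoa in every sow. CD83, the dendritic cell marker, and CD5L, the macrophage protein, were lower in every sow too at their brightest probe sets (differences -0.74 and -0.75). The part of these genes in the CD209 values was not tested. CD1E, a relative of the lipid-presenting CD1 proteins, was below background on every array.

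Of the 10 T and natural killer cell genes, 5 were above background in both groups. Without a block 0 passed in limma, and 5 differences were above 0 and 5 below. CD8A, the chain of the CD8 co-receptor on cytotoxic T cells, had 23.4, 22.5, 31.1 and 17.9 with Y-spermatozoa, against 20.9, 22.6, 20.3 and 18.6 with X-spermatozoa. The high value with Y-spermatozoa was that of sow 3, and the other sows had like values in both oviducts. The difference was 0.23 (SE 0.17, unadjusted p = 0.219).

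CD8B, the partner chain, had 21.8, 15.4, 21.4 and 19.8 with Y-spermatozoa, against 24.9, 20.2, 9.8 and 18.2 with X-spermatozoa, and the difference was again 0.23 (unadjusted p = 0.46). Here too sow 3 gave the widest gap, through a low value with X-spermatozoa. CD8B lies beside CD8A in the pig genome (assembly Sscrofa11.1), as CD3E, CD3D and CD3G lie beside each other. CD247, the zeta chain of the T cell receptor, had 27.8, 20.2, 24.2 and 12.9 with Y-spermatozoa, against 17.8, 22.9, 20.8 and 15.1 with X-spermatozoa (difference 0.17, unadjusted p = 0.524).

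The CD3 chains carry the T cell receptor to the surface. CD3E had 9.5, 11.4, 23.9 and 12.7 with Y-spermatozoa, against 12.4, 15.7, 18.2 and 20.1 with X-spermatozoa, and was lower with Y-spermatozoa in 3 of 4 sows (difference -0.21, unadjusted p = 0.488). CD3G had 7.1 to 15.5 with Y-spermatozoa and 10.7 to 13.4 with X-spermatozoa (difference -0.11, unadjusted p = 0.656, and 0.02 with a floor at background). CD3D had 20.1, 9.3, 5.1 and 16 with Y-spermatozoa, against 1.6, 3.8, 12.5 and 18.0 with X-spermatozoa, so that sows 1 and 2 went one way and sows 3 and 4 the other (difference 0.99, SE 0.83, unadjusted p = 0.269). The 3 chains did not move together.

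CD69, which appears early on activated lymphocytes, had 9.6, 6.1, 9.1 and 10.8 with Y-spermatozoa, against 10.8, 11, 14.1 and 12.5 with X-spermatozoa. It was lower with Y-spermatozoa in each sow, and the groups met at 10.8. The difference was -0.37 (SE 0.18, unadjusted p = 0.0741, and 0.0583 with the sow as a block), and -0.47 (unadjusted p = 0.047) with the deposited scaling. CD2, the receptor of CD58, had 13.1, 2.4, 14.4 and 1.2 with Y-spermatozoa, against 10.2, 7.3, 14.1 and 5.0 with X-spermatozoa. Sows 1 and 3 were above background and sows 2 and 4 below it in both oviducts (difference -0.71, SE 0.83, unadjusted p = 0.422), and with a floor at background the difference was 0.12.

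CD27, a receptor that sustains T and memory B cells, had 13.6, 1.8, 6.1 and 14.9 with Y-spermatozoa, against 4.4, 0.9, 1.1 and 4.2 with X-spermatozoa. In every sow the oviduct with Y-spermatozoa was the higher, and sows 1 and 4 were the higher sows. All 4 X-spermatozoa arrays and 2 of the Y-spermatozoa arrays were below their own background, so that no fold is given. The limma p was 0.0539 without and 0.00198 with the sow as a block, and the smallest adjusted p of any member in that fit was 0.895. With the sow as a block and values under background set to background, the p was 0.257. HBM and ALAS2 were higher in every sow as well and HBB was lower in every sow. The part of these genes in the CD27 values was not tested. CD4, the co-receptor of helper T cells, was below background on every array at both of its probe sets.

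CD79B and CD180, the B cell genes measured, were below background on all 8 arrays. CD180, a Toll-like receptor relative of B cells, had 0.8, 1.8, 1.4 and 1.1 with Y-spermatozoa, against 2.0, 2.2, 2.1 and 1.5 with X-spermatozoa. The Y-spermatozoa value was the lower in each sow, by a limma p of 0.101 without and 0.0499 with the sow as a block, and no fold is given at such signals. CD79B, a signalling chain of the B cell receptor, had 0.8 to 4.7 with Y-spermatozoa and 1.6 to 6.0 with X-spermatozoa (unadjusted p = 0.359). CD300C, an activating myeloid receptor, was above background on 1 array, one with X-spermatozoa (unadjusted p = 0.658).

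CD5L, the secreted macrophage protein, had 11.3, 4.1, 12.1 and 6.8 with Y-spermatozoa, against 12.8, 10.2, 18.5 and 16.3 with X-spermatozoa. It was lower with Y-spermatozoa in every sow, and the groups overlapped. The means were 8.57 ± 3.79 and 14.4 ± 3.68 (SD, n = 4 each). The difference was -0.75 (SE 0.35, 95% interval -1.56 to 0.07), with a limma p of 0.0689 without and 0.0255 with the sow as a block. With a floor at background as well as the block, the difference was -0.36 (unadjusted p = 0.0221). The second CD5L probe set gave -0.31 (unadjusted p = 0.155, and 0.255 with the sow as a block) and was lower with Y-spermatozoa in 3 of 4 sows. Its mean was above background in both groups, while that of the first was below it with Y-spermatozoa.

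With the sow as a block, 4 of the 52 probe sets passed the unadjusted threshold, 2 higher (CD209, CD27) and 2 lower (CD180, CD5L) with Y-spermatozoa. This is 7.69%, against 5.09% of all probe sets, and after adjustment 0% of all probe sets passed. None of the 4 had a mean signal above background in both groups. With both the block and a floor at background, 3 probe sets passed (5.77%, against 5.43% of all probe sets), 1 higher (the dimmer one of CD47) and 2 lower (CD5L, CD83). Of these, CD5L alone was among the 4. The same direction in all 4 sows was seen in 8 probe sets, 3 higher and 5 lower, or 15.4%, against 13.2% of all probe sets (6.44% higher and 6.71% lower).

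The sows were then compared with each other by a limma F-test that keeps the kind of spermatozoa as a term. At the unadjusted threshold 6 of the 52 probe sets differed among sows (11.5%, against 14.2% of all probe sets), those of CD2, CD27, CD38, CD47, CD53 and CD86, and after adjustment none did, nor did any probe set of the array (0%). That 0% holds for the floor of 1 used here, and with a floor at background 481 probe sets of the array passed after adjustment, none of them a member. The CD47 probe set is the dimmer one described above, and that of CD53 was below background on all arrays. In 42 of the 52 the range of the 4 sow means was wider than the mean gap between the oviducts of a sow, which also held for 79.9% of all probe sets. Of the 31 member probe sets above background 27 had the wider range among sows, against 83% of all probe sets above background, and their median range of sow means was 0.38 and their median of mean gaps 0.21, both on the log2 scale. A range of 4 means tends to exceed a mean gap even where sows do not differ. These counts and medians therefore cannot show that sows varied more than the oviducts of a sow.

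Of these 6, the probe sets of CD86 and CD47 were above background in both groups, which is 2 of 31 (6.45%), against 14.3% of all probe sets above background. The sow means of CD86 had a range of 1.16 on the log2 scale, while the oviducts of a sow differed by 0.37 on average (F = 13.3, unadjusted p = 0.0113, adjusted p = 0.255). Without sow 1 the p was 0.0721. The summed myeloid markers had sow means of 131.1 in sow 1, 163.3 in sow 2, 115.6 in sow 3 and 118.7 in sow 4, so sow 2 had the highest sum and sow 4 lay below sow 1. Averaged over both oviducts, the summed markers of stroma and smooth muscle were higher in the sows high in CD86, with sow means of 4524 in sow 1, 8765 in sow 2, 5919 in sow 3 and 7069 in sow 4. With X-spermatozoa alone, ACTA2, TAGLN, DES, COL1A2 and DCN were higher in sow 3 than in sow 4, and VIM and COL3A1 lower. The part of these markers in the CD86 values was not tested.

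CD38, an ectoenzyme of plasma cells and activated lymphocytes that consumes NAD, had the largest F. It had 0.5, 7.7, 7.1 and 9.1 with Y-spermatozoa, against 1.6, 11.6, 6.9 and 9.5 with X-spermatozoa. Sow 1 was low in both oviducts and the other sows were alike, at F = 77.5 (unadjusted p = 0.000277, adjusted p = 0.14). Only 1 of these 8 signals was above the background of its array. With a floor at background the p was 0.446 and without sow 1 it was 0.158, so the result rests on sow 1 and on values below background. Between the groups the limma p of CD38 was 0.814.

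**Figure D3:**
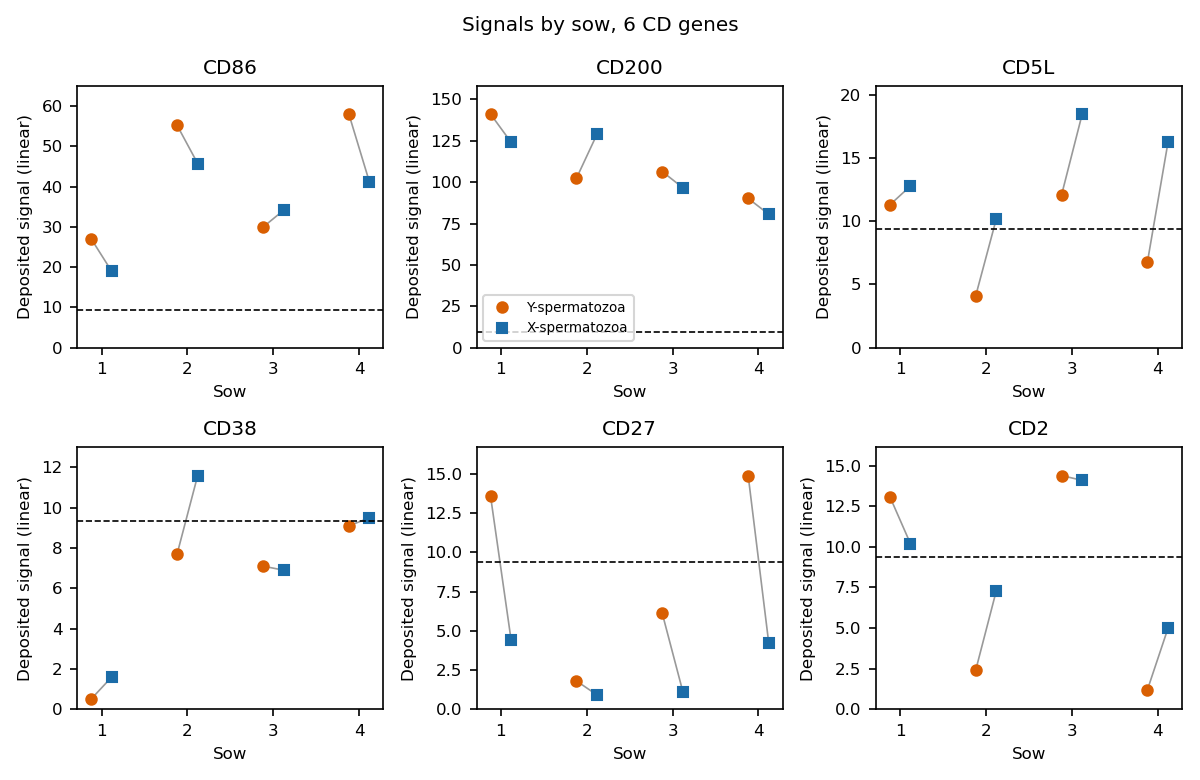
Deposited signals of 6 CD genes by sow, with Y-spermatozoa (circles) left of X-spermatozoa (squares) joined within each sow, and the mean background of 9.36 as a dashed line. CD86 shows sows 2 and 4 above sows 1 and 3 in both oviducts, and CD38, CD27 and CD2 vary about or below the dashed line; CD200 was added after its values were seen.

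For 12 of the 34 genes the array holds several probe sets, and these serve as repeated readings of a gene on the same RNA. The probe sets of 5 genes (CD300C, CD4, CD5L, CD80 and CD82) all had differences of one sign, and those of the other 7 genes were mixed. For CD164, CD47, CD53, CD93, CD40, CD83 and CD247 the sign thus depended on the probe set. The readings of CD53 were 0.09, 0.70 (SE 0.67) and 0.00, and those of CD247 were 2 above and 2 below 0, with only the brightest above background in both groups. Probe sets of one gene can share targets in the transcript and were not counted as replicates.

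**Figure D4:**
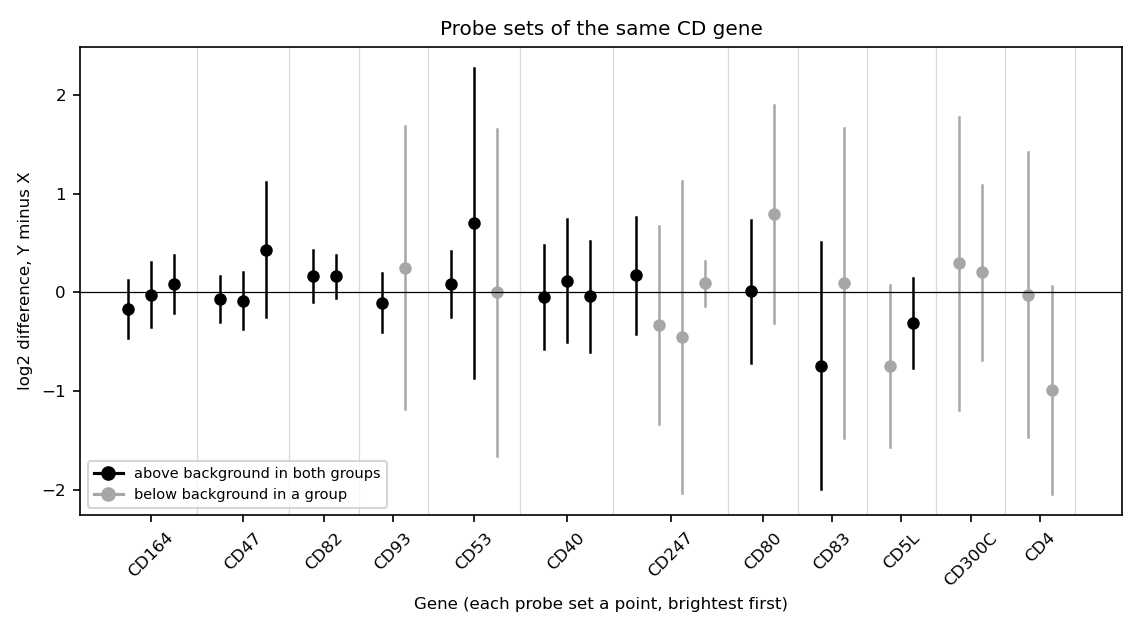
Log2 difference, Y-spermatozoa minus X-spermatozoa, with its 95% interval from limma, for each probe set of the 12 CD genes with several, the brightest first and grey where a group's mean signal is below background. The intervals all include 0, and most of the grey ones are wide.

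Genes that work with these antigens were taken from lists. In T cell receptor signalling, 8 of 14 listed genes outside the members were measured, 1 was called higher with Y-spermatozoa and 0 lower (12.5%, against 3.56% of all probe sets). All 8 mean differences were above 0, with a median of 0.11, or 0.05 for the 7 above background in both groups. Only 1 of the 8 was higher with Y-spermatozoa in every sow. LCK was lower with Y-spermatozoa in 3 of 4 sows, and its difference of 0.42 came from sow 2, whose X-spermatozoa signal was 1.0. The one called was PTPRC, the CD45 phosphatase of all leukocytes, with 12.1, 15.7, 8.8 and 9.8 with Y-spermatozoa, against 9.2, 5.0, 6.8 and 7.6 with X-spermatozoa. It was higher with Y-spermatozoa in every sow and the groups overlapped, with a mean below background in X-spermatozoa (difference 0.78, SE 0.26, unadjusted p = 0.0171, adjusted p = 1.00, and 0.0469 with the sow as a block). HBM, ALAS2 and the 5 myeloid markers were higher with Y-spermatozoa on average as well, HBB was not, and their part in the PTPRC values was not tested.

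In B cell receptor signalling, 4 of 9 listed genes were measured and 0 were called with or without the block. Of 30 CD antigens that go by another gene symbol, such as integrins and adhesion molecules, 23 were measured. PTPRC was the 1 called (4.35%, against 3.56% of all probe sets), and the median difference was 0.12, with 13 above 0 and 10 below. With the block 2 of the 23 passed, against 5.09% of all probe sets. Besides PTPRC this was ICAM2, an adhesion molecule of endothelium and leukocytes. ICAM2 had 31.6, 41.7, 27.8 and 43.5 with Y-spermatozoa, against 26.5, 29.1, 25.3 and 31.0 with X-spermatozoa. It was higher with Y-spermatozoa in every sow and well above background (difference 0.38, SE 0.18, unadjusted p = 0.0667, and 0.0215 with the block). Beside it, the endothelial marker sums were 215.7 to 419.4 with Y-spermatozoa and 243.2 to 356.1 with X-spermatozoa, with 4 of 5 differences above 0 (median 0.25). Of these VWF, the clotting factor carrier of endothelium, was higher with Y-spermatozoa in every sow (difference 0.49, unadjusted p = 0.215, and 0.0422 with the block). Their part in the ICAM2 values was not tested.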

How the data were processed

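The authors deposited linear signal intensity values, 1 per probe set and array, made with MAS5 (version 5.1, per the submitters' processing notes) and scaled per array. Their methods name RMA, limma t-tests and Benjamini-Hochberg correction. RMA needs probe-level values, not used here, so signals were quantile normalized, set to at least 1 and put on the log2 scale. The 124 AFFX controls were left out. limma 3.58.1 in R 4.3.3 compared 4 Y-spermatozoa with 4 X-spermatozoa arrays over 23999 probe sets, without the sow. The labels give replicate numbers and name no sow. Since both oviducts of each animal were used, same-numbered arrays were taken as 1 sow. Their deviations correlated by 0.13 to 0.19, and the sow as a block was an alternative. Others were scaling, floor, pseudocount of 16, filtering, moderation, covariates and leaving out arrays or sows; the block joined to the floor or to the deposited scaling was chosen after seeing the data. Figures used matplotlib 3.10.9 in Python 3.11.15.

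Symbols come from the platform annotation (10140 probe sets with 1 symbol, 157 with several, 13826 with none); all 52 member probe sets matched the Sscrofa11.1 gene table, used for names and neighbours only. The members and lists were chosen with earlier results of these data known. Named genes are those past the unadjusted threshold, the 5 brightest, up to 5 of each role, the 5 of largest F and the 5 of largest difference above background. CD53, CD1E, CD3D, CD69, CD4 and the genes of the partner lists named fall outside this rule and were named after their values were seen. The fits were tested on simulated data. The number of arrays limits the precision.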

Additional observations from a re-analysis of the deposited data

Results flagged for a closer look

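Within each group of 4 arrays, the highest or lowest signal of each of the 34 genes was compared with the rest by the ratio of its gap to the whole range, on normalized log2 values with a floor of 1, and 3 of 68 such groups passed Dixon's critical value at 95%. Chance flags about 1 in 20 such groups. For CD38 in Y-spermatozoa the ratio was 0.885 (0.767 on the deposited signals), with 0.5 in sow 1 and 7.1 to 9.1 in the other sows, all below their background. For CD4 in Y-spermatozoa it was 1.00 (0.959 on the deposited signals), where the floor makes the other 3 arrays equal, with 5.3 in sow 2 and 0.4 to 0.6 in the others, again below background. For CD40 in X-spermatozoa it was 0.886 (0.762 on the deposited signals), with 20.2 in sow 4 and 25.0 to 26.5 in the others, which is above background. These are values with no explanation tested.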

How the results depend on the processing

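Adjusted calls among the CD probe sets stayed at 0 in limma between Y-spermatozoa and X-spermatozoa under every alternative run, and the counts below are at an unadjusted p of 0.05, where the report gives 1. With the sow as a replicate block the count was 4 and with the sow as a random replicate block 5. It was 3 with the deposited scaling, 2 with arrays centred on their median, 2 with the pseudocount of 16, 2 with a trend in eBayes, 2 with array weights, 2 with the methods' t-test without moderation and 4 with the hybridisation controls as a covariate. It was 0 with a floor at background and 0 in the brighter 11999 probe sets, which hold 17 of the 52. The block joined to the floor gave 3 and joined to the deposited scaling 5, both chosen after seeing the data. With 1 probe set per gene it was again 1. Leaving out 1 array or sow gave 1 to 6, with 2 to 4 without an array (4 without the Y-spermatozoa array of sow 3) and, with the block, 5 without sow 1, 3 without sow 2, 6 without sow 3 and 1 without sow 4. Of all probe sets, 5.09% passed with the block (CD probe sets 7.69%), 6.08% with the random block (9.62%) and 3.76% with the deposited scaling (5.77%). The covariate gave 3.6% (7.69%), the floor 2.85% (0%) and the brighter probe sets 2.59% (0%). Centring, the pseudocount, the trend, array weights and the t-test gave 3.39% to 3.63% (3.85% in each). The block with the floor gave 5.43% (5.77%) and with the deposited scaling 5.4% (9.62%). Leaving out 1 array gave 3.2% to 4.29% (3.85% to 7.69%). With the block the share was 4.78% (9.62%) without sow 1, 5.03% (5.77%) without sow 2, 4.5% (11.5%) without sow 3 and 4.68% (1.92%) without sow 4. The causes were not tested.

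CD209 had an unadjusted p under 0.05 in all 8 fits without 1 array; with the block its p was 0.0643 without sow 2, 0.0803 without sow 3 and 0.0804 without sow 4. CD27 passed with the block in each fit without a sow. Among sows the count of 6 was 2 of 17 in those brighter probe sets (29.4% of all of them), 8 with a floor at background (18.7%), 7 with the pseudocount (20%) and 4 to 6 without a sow. After adjustment it was 1, CD38, with sow as the only term and 0 otherwise, though over the whole array 481 probe sets passed with the floor, 414 with the pseudocount, 895 among the brighter ones and 72 with sow alone.

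The log2 difference kept its sign in 792 of 862 repeats over the 34 genes, and in all of them for 15 genes. This count includes repeats that could not turn round. On all 8 arrays the block (fixed or random), the trend, the t-test, 1 probe set per gene and the brighter probe sets leave the difference itself unchanged. Joined to the floor or to the deposited scaling, the block only repeats the difference of that setting. The repeats that turned round had unadjusted p-values of 0.222 or more, all of genes not called in the fit of the report without a block (CD180 passed with it, with the deposited scaling and with centring). They were CD80 with the deposited scaling (-0.071, also with the block), with arrays centred on their median (-0.038) and with array weights (-0.012), CD151 with centring (0.017), CD4 with the pseudocount (0.0066) and array weights (0.0086), and, with a floor at background with or without the block, CD300C (-0.0905), CD3G (0.018) and CD2 (0.12). With the hybridisation controls as a covariate they were CD47 (0.00497), CD38 (0.22), CD200 (-0.23), CD58 (-0.0082), CD40 (0.22), CD80 (-0.58), CD1E (0.94), CD180 (0.074), CD247 (-0.23), CD8B (-0.027), CD3G (0.38), CD4 (1.23), CD9 (-0.14), CD63 (-0.00598) and CD82 (-0.033). Those controls were 9.82 to 10.06 on the log2 scale on Y-spermatozoa arrays and 9.65 to 9.82 on X-spermatozoa arrays, so the covariate and the group could hardly be told apart. Over the fits without an array or a sow the difference ran from -0.12 to 0.14 for CD151, -0.083 to 0.17 for CD200, -4.45e-05 to 0.39 for CD247, -0.35 to 0.71 for CD300C, -0.87 to 0.54 for CD38, -0.36 to 0.12 for CD3G, -0.66 to 0.40 for CD4, -0.19 to 0.21 for CD40, -0.0296 to 0.084 for CD58, -0.26 to 0.31 for CD80, -0.048 to 0.059 for CD81, -0.0896 to 0.42 for CD8B and -0.055 to 0.15 for CD9. Signals near background limit the leukocyte genes, 12 of which had a group mean below it.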
